A study of Mus musculus with 8 samples.

Results

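The 8 genes described here encode receptors for acetylcholine: the muscarinic receptors Chrm1, Chrm2, Chrm3 and Chrm4, and the nicotinic subunits Chrna4, Chrna5, Chrna7 and Chrnb2. They were taken by gene name from the deposited tables, and all 8 had a row among 13130 genes. Their names also matched 12 of 24526 transcripts. C57BL/6 mice were 12 weeks of age, and RNA was taken from their orbital frontal cortex. There were 4 libraries labelled sh-circHomer1/sh-Homer1b (called knockdown) and 4 labelled sh-scramble (called control). The labels do not say whether a knockdown library received a hairpin against the circular RNA circHomer1, the long Homer1b messenger RNA or both, nor which vector or cells carried it. Separate animals are not stated for the libraries either, so a p-value reflects only how far these libraries spread, which may be technical.

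Acetylcholine reaches the cortex mainly through fibres of basal forebrain neurons and acts there on receptors of both classes. The muscarinic receptors work through G proteins: M1 and M3 (Chrm1, Chrm3) couple to Gq/11 and phospholipase C, whereas M2 and M4 (Chrm2, Chrm4) couple to Gi/o and lower cyclic AMP. The nicotinic receptors are ion channels of subunits in a ring: Chrna4 and Chrnb2 form the channel that binds nicotine most tightly, Chrna5 joins it as an accessory subunit, and Chrna7 forms a calcium-permeable channel on its own.

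Levels are in FPKM (fragments per kilobase, scaled to library size). Gene values are per length of all annotated exons of a gene, so the order of genes depends on that length too. Differences are of log2(FPKM + 1), knockdown minus control, from a limma fit over all 13004 genes with a mean of at least 0.5 FPKM, with Benjamini-Hochberg adjusted p under 0.05 as the threshold. Homer1, the targeted gene, had 18.92, 16.48, 16.6 and 19.3 FPKM in the knockdown libraries and 23.51, 26.27, 21.34 and 18.91 FPKM in the controls, so the groups overlapped (difference -0.31 ± 0.10 SE, limma adjusted p = 0.274). This whole-gene value does not show the level of circHomer1 or of Homer1b on its own. Markers enriched in striatal projection neurons were present in every library. Their 14 genes summed to 205, 379, 454 and 145 FPKM in the knockdown libraries and to 787, 487, 685 and 231 FPKM in the controls. All 14 had a difference below 0, with a median of -0.93, against 0.01 over all genes. The summed level of 5 cortical excitatory markers was 220 to 262 FPKM in the knockdown libraries and 185 to 277 FPKM in the controls. No marker with a row was listed at 0. In bulk tissue, fewer cells of a type and less RNA per cell cannot be told apart.

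Short stretches of sequence show where the receptor genes are read in what follows. The promoters are those of Chrna7 and Chrm2, which had the smallest p among the receptors, taken from RefSeq (GRCm38.p6) as the 250 bases before the annotated start. Each is written 5′ to 3′ on the gene's strand, chr7:63212527-63212776 (minus) for Chrna7 and chr6:36387834-36388083 (plus) for Chrm2. Capitals mark matches to an E-box (CACGTG) or a GC box (GGGCGG, or CCGCCC where it lies on the opposite strand).
Chrna7 promoter: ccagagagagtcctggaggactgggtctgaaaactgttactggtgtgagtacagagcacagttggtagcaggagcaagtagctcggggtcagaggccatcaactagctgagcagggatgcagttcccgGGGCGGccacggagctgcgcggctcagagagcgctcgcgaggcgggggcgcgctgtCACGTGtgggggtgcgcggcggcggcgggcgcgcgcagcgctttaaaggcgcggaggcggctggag
Chrm2 promoter: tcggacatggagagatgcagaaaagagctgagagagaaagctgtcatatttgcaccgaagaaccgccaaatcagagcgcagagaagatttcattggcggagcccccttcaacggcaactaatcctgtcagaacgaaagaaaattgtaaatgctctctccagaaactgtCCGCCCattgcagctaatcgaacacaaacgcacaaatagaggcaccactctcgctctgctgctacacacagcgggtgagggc
The E-box of Chrna7 began 66 bases before the start. Of 32851 mouse promoters of this length, 6.02% held the E-box, 32.74% the GC box and 1.55% a cyclic AMP response element (TGACGTCA), which no receptor promoter in the table held. These motifs were searched on both strands and do not overlap in the printed promoters. A match is a run of letters and not evidence of binding.

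The isoforms of Chrna4 and Chrnb2 part where a shared stretch ends, and the 20 bases on either side show what separates them. Lower case is shared sequence, ending at base 181024765 of chromosome 2 for Chrna4 and base 89760672 of chromosome 3 for Chrnb2 (GRCm38, minus strand). Capitals are the bases that each isoform reads next. Chrna4-201 reads straight on into the adjoining bases, whereas Chrna4-205 is spliced there and continues at base 181018653. Both Chrnb2 isoforms are spliced at their point.
Chrna4-201: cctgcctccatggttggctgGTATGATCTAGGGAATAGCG
Chrna4-205: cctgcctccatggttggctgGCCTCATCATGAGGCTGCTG
Chrnb2-201: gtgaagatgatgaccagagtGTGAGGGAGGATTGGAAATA
Chrnb2-203: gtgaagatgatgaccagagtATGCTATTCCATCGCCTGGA
Chrm3 is different, because its isoforms share the same coding exon and one lies wholly inside the other. The coding sequence begins with the bases shown here, the start codon in capitals (chr13:9878963-9878998, minus strand).
Chrm3 coding start: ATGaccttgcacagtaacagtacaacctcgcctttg

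The receptors spanned about one order of magnitude in level, and muscarinic genes led. Averaged over the 8 libraries, Chrm1 had 22.3 FPKM, Chrm4 13.5, Chrm3 10.6, Chrna4 9.86, Chrm2 3.82, Chrnb2 3.66, Chrna7 1.99 and Chrna5 1.37 FPKM. Chrm1 was above Chrm4 in 8 of 8 libraries, and Chrna4 was above Chrm2 in 8 of 8, with no overlap of their ranges. The other neighbours in this order overlapped: Chrm4 exceeded Chrm3, and Chrm3 exceeded Chrna4, in 6 of 8 libraries each. Chrm2 exceeded Chrnb2 in 4 of 8. Taken per length of single transcripts, the order differed. Chrna7-201 averaged 4.20 FPKM, above Chrm2-202 (4.06) and Chrnb2-201 (2.75), and Chrm3-202 (14.27) was above Chrm4-201 (13.49). Chrnb2-201 carried 50.5 to 80.9% of its gene value and Chrna7-201 96.2 to 99.1%, so Chrnb2 was compared there only in part. By mean level, Chrm1 stood above 85.2% of all 13130 genes with a row and Chrna5 above 13.9%.

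No receptor gene passed the threshold between the groups, and none of 13004 genes did (0%). At an unadjusted p under 0.05 there were 2 of 8 receptors, Chrna7 and Chrm2, both lower in the knockdown libraries, and 14.2% of all genes (5.07% in the lower direction). With the striatal score in the model there was 1 of 8, Chrna7, and 7.46% of all genes (2.72% in the lower direction). The groups did not overlap in 1 receptor, Chrna7, and in 9.15% of all genes (3.22% in the lower direction). The median difference of the 8 receptors was -0.10, against 0.01 over all genes, with 5 below 0, as were 45.1% of all genes. One of these 5, Chrm3, had a difference of -0.0048, which turned to 0.003 after correction for GC content and length. Among 11 receptor transcripts tested, none passed, against 0.0256% of all 23415 transcripts. At an unadjusted p under 0.05 there was 1 of 11, against 7.96% of all transcripts. The same transcript, Chrna7-201, was the 1 without overlap, against 5.7% of all transcripts (2.66% in the lower direction). None of 6 receptor isoform shares passed, against 0.0308% of all 16239 shares tested.

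**Figure D1:**
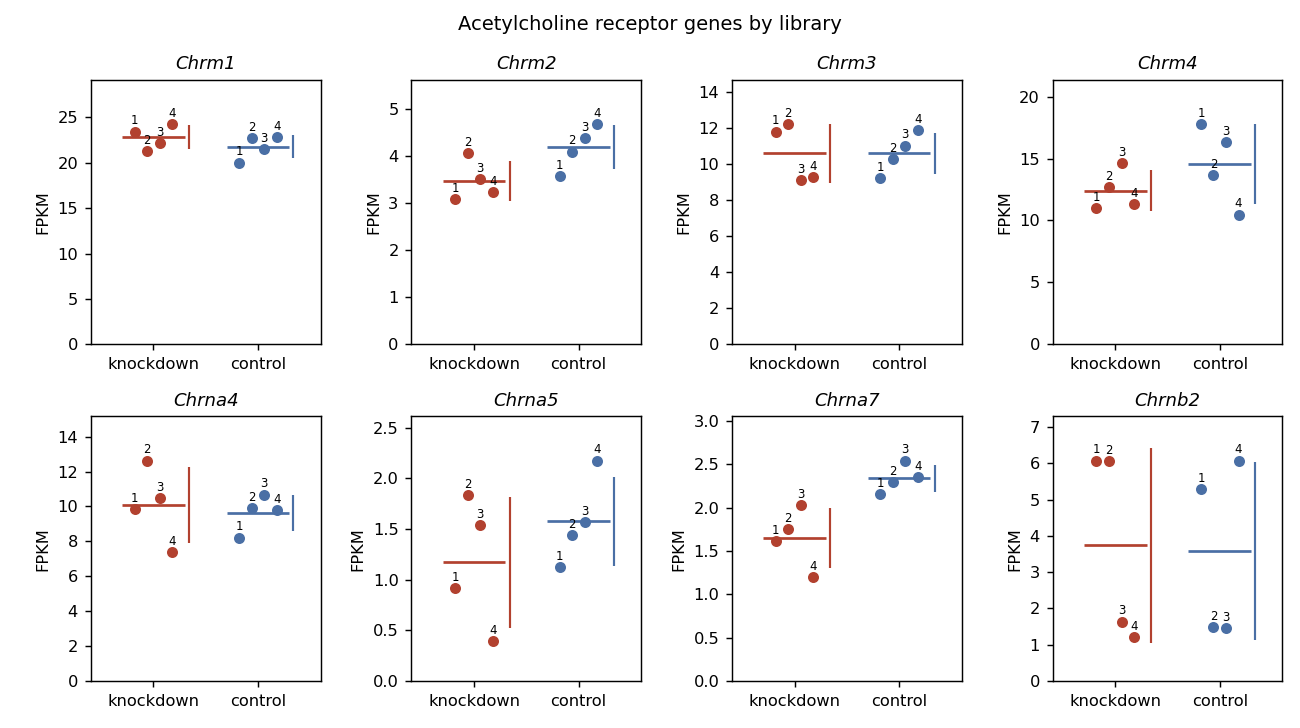
FPKM (vertical axes, each from 0) of the 8 receptor genes in the 4 knockdown (red) and 4 control (blue) libraries, numbered by replicate. Horizontal lines are means and vertical lines ± 1 SD, and the groups are apart without overlap in Chrna7, whose knockdown libraries reach 2.03 FPKM at most and whose controls start at 2.16 FPKM.

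Chrna7 had the lowest p among the receptors (chromosome 7, 63098692 to 63212569, minus strand, GRCm38). The gene, whose promoter is printed above, had 1.62, 1.75, 2.03 and 1.2 FPKM in the knockdown libraries, against 2.16, 2.3, 2.54 and 2.35 FPKM in the controls. All 4 knockdown libraries lay below every control, knockdown replicate 4 furthest. The means were 1.65 ± 0.345 FPKM in knockdown and 2.34 ± 0.160 FPKM in control (SD, n = 4 each), 29.5% apart, and the difference was -0.34 ± 0.10 (SE; 95% interval -0.56 to -0.12; limma unadjusted p = 0.00662, adjusted p = 0.266). By unadjusted p it was gene number 319 of 13004. The coding isoform Chrna7-201 (10 exons, 502 codons) made up 96.2 to 99.1% of the gene value. Chrna7-201 had 3.47, 3.7, 4.26 and 2.56 FPKM in the knockdown libraries, against 4.5, 4.83, 5.39 and 4.92 FPKM in the controls (-0.41 ± 0.13 SE, limma adjusted p = 0.565). The gene difference was -0.26 without knockdown replicate 4. Adding the striatal marker score to the model gave -0.24. Its unadjusted limma p was 0.002 to 0.0476 over 20 alternatives. That of Chrna7-201 was 0.0141, and 0.0860 with the striatal score in the model.

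Chrm2, a Gi/o-coupled receptor found on cholinergic terminals and on some interneurons, was the other gene under an unadjusted p of 0.05, a side it lost in 10 of 20 alternatives (chromosome 6, 36388084 to 36528414, plus strand). It had 3.08, 4.05, 3.5 and 3.23 FPKM in the knockdown libraries and 3.57, 4.09, 4.37 and 4.68 FPKM in the controls. Of the knockdown libraries, 3 lay below the lowest control and replicate 2 lay within the control range. The difference was -0.21 ± 0.09 (SE; 95% interval -0.42 to -0.01; limma unadjusted p = 0.0415, adjusted p = 0.339). The unadjusted limma p was 0.0895 with the striatal score in the model, 0.181 after correction for GC content and length, and between 0.0124 and 0.111 with single libraries left out. Chrm2-202, the coding isoform and the 1 listed, carried 99.4 to 99.9% of the gene value and differed by -0.22 ± 0.11 (SE; limma unadjusted p = 0.0776, adjusted p = 0.641). The exons of Chrm2 share 142 bases with a non-coding gene on the other strand, and whether the authors counted by strand is not given in the sources used here.

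Chrm4, the M4 receptor, is known for its high expression in the striatum (chromosome 2, 91927249 to 91928688, plus strand). It had 11.01, 12.68, 14.62 and 11.33 FPKM in the knockdown libraries and 17.81, 13.64, 16.33 and 10.47 FPKM in the controls. Control replicate 4, the lowest of all 8, also had the lowest striatal sum of the controls, and control replicate 1, the highest, had the highest striatal sum. Knockdown replicates 4 and 1 had lower striatal sums than control replicate 4 (145 and 205 against 231 FPKM) but slightly higher Chrm4. The difference was -0.20 ± 0.16 (SE; 95% interval -0.55 to 0.16; limma adjusted p = 0.577), and the groups overlapped. Allowing for the striatal score in the model turned the difference to 0.07, and single libraries left out moved it between -0.34 and -0.10. The first value was without control replicate 4 (limma unadjusted p = 0.0213, adjusted p = 0.293) and the second without control replicate 1 (limma unadjusted p = 0.534, adjusted p = 0.828). The genes most like Chrm4 over the 8 libraries were Bcr (Pearson r = 0.993), Slc35d3 (r = 0.991) and Ypel2 (r = 0.988), picked as the highest of 11592 genes. The counted exon of Chrm4 holds its coding sequence, and the RefSeq start lies 5060 bases upstream.

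**Figure D2:**
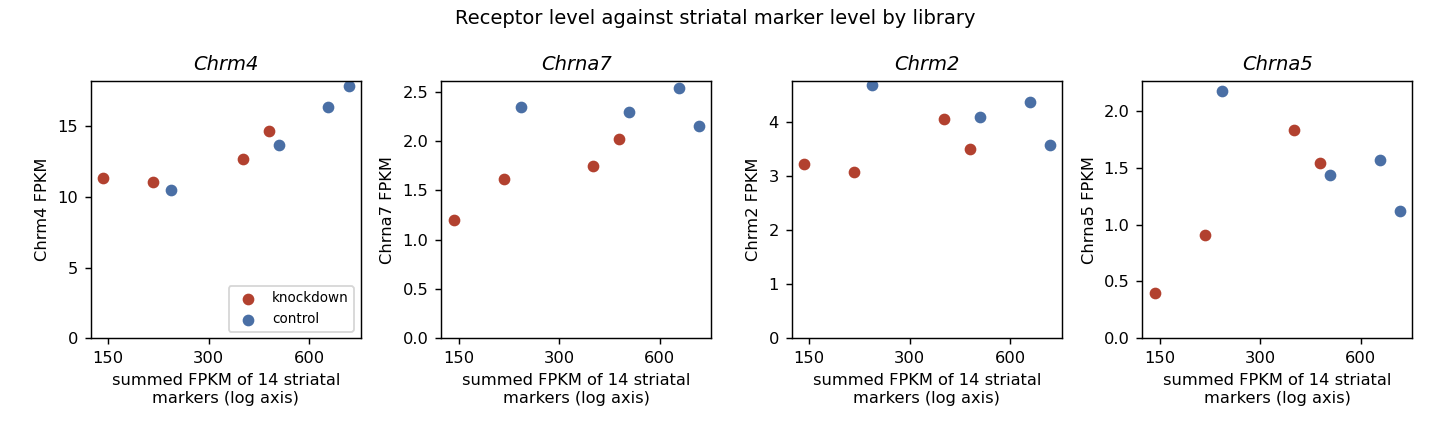
FPKM of Chrm4, Chrna7, Chrm2 and Chrna5 (vertical axes, from 0) against the summed FPKM of 14 striatal projection neuron markers (horizontal log axes), 1 point a library, knockdown in red and control in blue. Chrm4 is lowest, at 10.5 to 11.3 FPKM, in the 3 libraries with striatal sums of 145 to 231 FPKM, whereas the knockdown points of Chrna7 lie below all control points.

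Chrm1, the most abundant receptor, and Chrm3 are the Gq/11-coupled members, and neither differed beyond the spread between libraries. Chrm1 (chromosome 19, 8663789 to 8683587, plus strand) had 23.43, 21.27, 22.21 and 24.3 FPKM in the knockdown libraries and 20.03, 22.7, 21.55 and 22.8 FPKM in the controls. The ranges overlapped, and the difference was 0.06 ± 0.06 (SE; 95% interval -0.07 to 0.20; limma adjusted p = 0.634), or -0.02 with the striatal score as a covariate. Its exons share 329 bases with a small non-coding RNA gene on the other strand. Chrm3 (chromosome 13, 9875486 to 10360847, minus strand) had 11.81, 12.24, 9.11 and 9.28 FPKM in the knockdown libraries and 9.22, 10.27, 11.03 and 11.88 FPKM in the controls. Knockdown replicates 1 and 2 lay above the pair 3 and 4, and the controls spanned nearly the same range (95% interval of the difference -0.26 to 0.25; limma adjusted p = 0.987). Together the 4 muscarinic genes summed to 48.1 to 50.2 FPKM in the knockdown libraries and 49.8 to 53.3 FPKM in the controls. The Gi/o-coupled pair, Chrm2 and Chrm4, made up 28.6, 33.3, 36.6 and 30.2% of that sum in the knockdown libraries and 42.2, 34.96, 38.8 and 30.4% in the controls.

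Chrm1 was read as 3 transcripts with a steady make-up. Chrm1-201 took 82.7 to 85.5% of their summed FPKM in the knockdown libraries and 83.3 to 84.5% in the controls. Chrm1-202, with the same 460 codons and an extra exon, took 12.8 to 15.3% and 14.1 to 15.2%, knockdown and control. Chrm1-203, with an open frame of 74 codons, averaged 0.490 FPKM and fell below the filter.

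For Chrm3, control replicate 4 was set apart by its isoforms and not by its gene value. Chrm3-201, the single coding exon whose first bases are printed above, had 0.0983, 0.111, 0.112 and 0.112 FPKM in the knockdown libraries. In the controls it had 0.103, 0.101, 0.0964 and 17.78 FPKM, the last in replicate 4. Its 1770 bases occur whole inside Chrm3-202 as bases 824 to 2593 of 4336, and both encode the same 589 codons. Chrm3-202 had 16.92, 17.52, 13.03 and 13.22 FPKM in the knockdown libraries and 13.19, 14.73, 15.8 and 9.77 FPKM in the controls. In control replicate 4 Chrm3-201 thus took 64.5% of the listed FPKM, against 0.578 to 0.855% in the other 7 libraries. Of 23415 transcripts, 0.21% had as wide a gap between 2 neighbouring libraries. Every base of Chrm3-201 is also a base of Chrm3-202, so a fragment inside it can belong to either. The share difference of Chrm3-202, 15.9 percentage points (limma adjusted p = 0.911), turned to -0.04 points without that library.

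The nicotinic heteromer genes varied more between libraries than between groups. Chrna4 (chromosome 2, 181018380 to 181043546, minus strand) had 9.84, 12.63, 10.47 and 7.39 FPKM in the knockdown libraries and 8.21, 9.89, 10.67 and 9.77 FPKM in the controls. The knockdown libraries held both the highest and the lowest value, and the difference was 0.04 ± 0.14 (SE; 95% interval -0.28 to 0.36; limma adjusted p = 0.907). Chrna4-201 (629 codons) carried most of it, with 86.3 to 91.7% of the listed FPKM in the knockdown libraries and 88.0 to 98.9% in the controls. The shorter Chrna4-205, spliced at the point printed above where Chrna4-201 reads on, had 1.21, 1.24, 1.52 and 1.27 FPKM in the knockdown libraries. In the controls it had 0.95, 1.29, 1.57 and 0.119 FPKM, the last again in replicate 4. Its share there was 1.12%, against 8.26 to 13.7% in the other libraries, and the difference of the transcript was 0.28 ± 0.25 (SE, limma adjusted p = 0.758). Without control replicate 4 it was 0.03 (limma adjusted p = 0.960), and 0.57 with the striatal score in the model. The part of the Chrna4 gene value outside its listed transcripts was 0.2075 FPKM in control replicate 4, against 0 to 0.0223 FPKM in the other libraries. How reads were assigned among the Chrna4 isoforms was not tested.

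Chrnb2 (chromosome 3, 89746195 to 89764632, minus strand) fell into 2 levels that did not follow the groups. It had 6.08, 6.06, 1.63 and 1.2 FPKM in the knockdown libraries and 5.3, 1.48, 1.46 and 6.08 FPKM in the controls. Each group held 2 libraries at 5.3 FPKM or more and 2 at 1.63 FPKM or less. The gap between the levels was 1.26 on the log2 scale, and 101 of 13004 genes (0.78%) had one as large. The group difference was 0.02 ± 0.52 (SE; 95% interval -1.18 to 1.23; limma adjusted p = 0.987). It ranged from -0.24 to 0.33 with single libraries left out and was 0.54 with libraries weighted by quality (limma adjusted p = 0.643).

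The Chrnb2 levels were seen both in the listed isoform and in what it left over. Chrnb2-201 (501 codons) had 4.97, 4.0, 1.73 and 0.819 FPKM in the knockdown libraries and 3.56, 1.18, 1.16 and 4.56 FPKM in the controls. It accounted for 50.5 to 80.9% of the gene value. The remainder was 2.28, 3.0, 0.312 and 0.574 FPKM in the knockdown libraries and 2.58, 0.577, 0.572 and 2.6 FPKM in the controls, over all exons of the gene. GENCODE M21 holds a longer coding isoform with another last exon, Chrnb2-203 (727 codons, printed above), which has no row in the transcript table, so its own level was not analysed here. The exons of Chrnb2 share 1365 of 8380 bases with Adar on the opposite strand. Adar had 22.18, 21.9, 21.85 and 20.31 FPKM in the knockdown libraries and 20.17, 19.99, 21.17 and 22.25 FPKM in the controls. These whole-gene values do not show how reads in the shared bases were assigned, which was not tested.

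**Figure D3:**
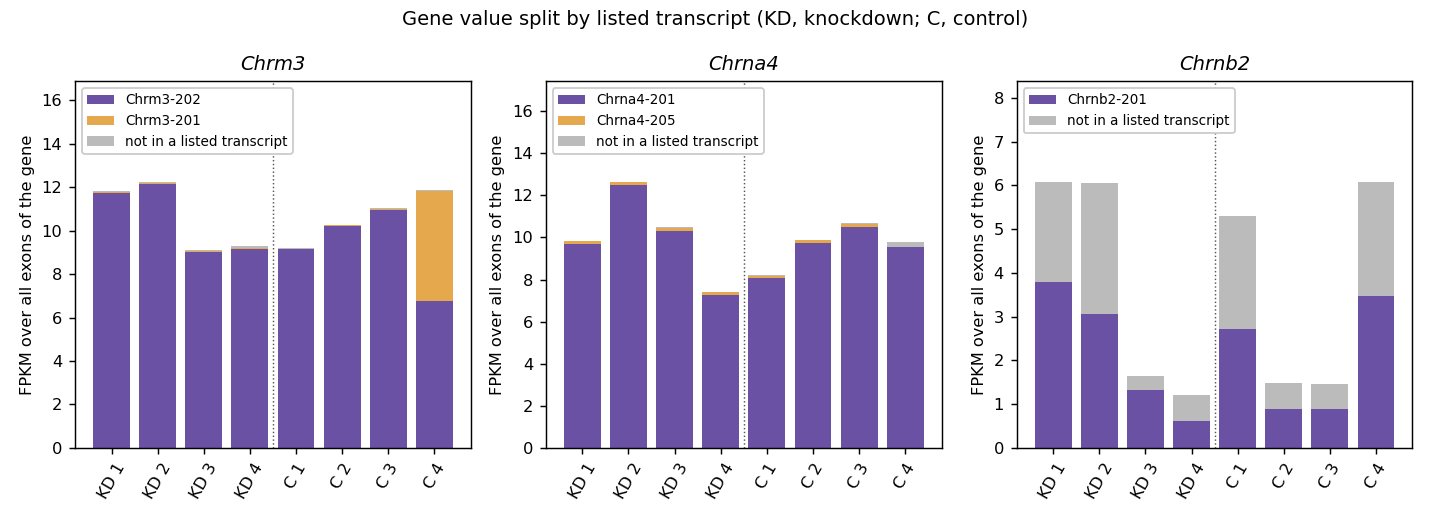
Gene values of Chrm3, Chrna4 and Chrnb2 in FPKM (vertical axes, from 0) for each library (KD, knockdown; C, control), split into listed transcripts (purple and orange) and the remainder (grey), each scaled to the exon length of the gene. Chrm3-201 fills a large part of the bar in C 4 alone, and the Chrnb2 bars reach 5.3 to 6.08 FPKM in KD 1, KD 2, C 1 and C 4 and 1.2 to 1.63 FPKM in the others.

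The ratio of Chrna4 to Chrnb2 was 1.62, 2.08, 6.41 and 6.16 in the knockdown libraries and 1.55, 6.7, 7.31 and 1.61 in the controls. Chrna5 (chromosome 9, 54980880 to 55007779, plus strand), the accessory subunit known in cortex from layer 6 neurons, had the widest fold range of the receptors, 5.49-fold over the 8 libraries. It had 0.914, 1.83, 1.54 and 0.396 FPKM in the knockdown libraries and 1.12, 1.44, 1.57 and 2.18 FPKM in the controls. The groups overlapped, with knockdown replicates 4 and 1 below all controls, and the difference was -0.28 ± 0.22 (SE; 95% interval -0.79 to 0.23; limma adjusted p = 0.577). It was -0.09 without knockdown replicate 4 and -0.15 after allowing for the striatal score.

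The layer 6 markers summed to 21.7, 46.8, 34.4 and 26.8 FPKM in the knockdown libraries and to 37.3, 31.3, 49.9 and 34.1 FPKM in the controls, lowest in the same pair of knockdown libraries as Chrna5. The high ends did not match, as Chrna5 was highest in control replicate 4 and the layer 6 sum in control replicate 3. Of these 6 markers with a row, 5 had a difference below 0, and their part in the Chrna5 values was not tested. Chrna5-202 (467 codons) accounted for 71.3 to 81.9% of the gene value and differed by -0.37 ± 0.28 (SE, limma adjusted p = 0.725). That difference was -0.15 without knockdown replicate 4 and -0.23 with the striatal score in the model. Relative to Chrna4, Chrna5 stood at 9.28, 14.5, 14.7 and 5.36% in the knockdown libraries and 13.7, 14.5, 14.7 and 22.3% in the controls.

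Knockdown replicate 4 had the lowest value of all 8 libraries in each of the 4 nicotinic genes. Their sum there was 10.2 FPKM, against 15.1 to 22.3 FPKM in the rest of the libraries. The same library had the lowest striatal sum (145 FPKM), the lowest myelin sum (483 FPKM, against 552 to 941 FPKM elsewhere) and the highest sum of upper layer markers (111 FPKM, against 48.3 to 94.2 FPKM elsewhere). Knockdown replicate 1 came next in each of these marker sums (205, 552 and 94.2 FPKM), but its nicotinic sum was 18.45 FPKM. The muscarinic sum of knockdown replicate 4, 48.1 FPKM, was the lowest too, against 49.3 to 53.3 FPKM elsewhere. No single muscarinic gene was at its lowest there, and Chrm1 was at its highest (24.3 FPKM). The part of tissue make-up in these values was not tested. The striatal covariate adjusted group differences and did not test the level of a single library.

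**Figure D4:**
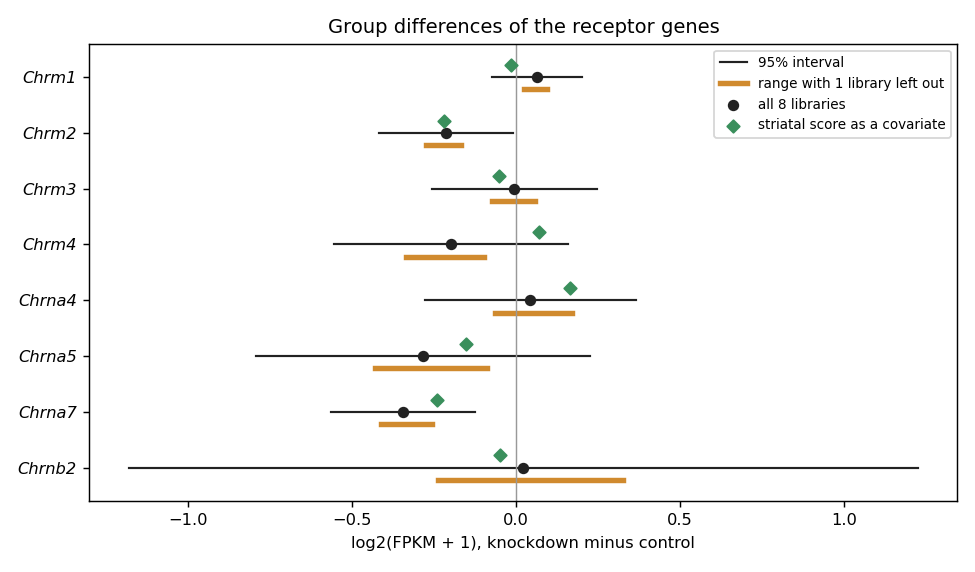
Differences of log2(FPKM + 1), knockdown minus control, for the 8 receptor genes (horizontal axis). Dots are all 8 libraries with 95% intervals (black lines), orange bars the range with 1 library left out and green diamonds the value with the striatal score as a covariate, which lies at 0.07 for Chrm4 and -0.24 for Chrna7, while the interval of Chrnb2 runs from -1.18 to 1.23.

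For each receptor the 3 genes with the highest Pearson r over the 8 libraries, of 11592 with a mean of at least 1 FPKM, give its pattern in other genes. Values this high are found by picking among so many genes over 8 points, so they describe these libraries alone. Chrna7 was most like Klhl11 (r = 0.966), Tubgcp5 (0.965) and Neto1 (0.964). Neto1, an auxiliary protein of glutamate receptors, had 21.2, 24.5, 23.3 and 16.7 FPKM in the knockdown libraries and 29.6, 28.9, 32.5 and 28.6 FPKM in the controls. Chrna5 was most like Wdr35 (r = 0.983), the dopamine receptor gene Drd5 (0.982) and Ddb1 (0.97). Drd5 had 1.22, 1.8, 1.62 and 0.724 FPKM in the knockdown libraries and 1.2, 1.55, 1.59 and 2.32 FPKM in the controls.

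The levels of Chrnb2 were followed in part by Pawr (r = 0.943), Nol10 (0.939) and Lrrfip2 (0.912), the lowest leading r of any receptor. Nol10, for example, had 8.1, 8.48, 7.07 and 6.42 FPKM in the knockdown libraries and 7.76, 7.07, 7.17 and 8.4 FPKM in the controls. It split into the same high and low libraries as Chrnb2, over a much narrower range and in another order within them. Chrna4 was most like Sdr42e1 (r = 0.985), Pigz (0.961) and Nhp2 (0.953). For the muscarinic genes the leading genes were Shmt2 (r = 0.968), Cnih3 and Dnajc4 for Chrm1, Nedd8 (0.968), Ift52 and Atl1 for Chrm2, and Rnft2 (0.964), Rab11fip5 and St3gal5 for Chrm3.

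Genes that make, carry or break down acetylcholine were present at low level, apart from the esterase and a choline transporter. Of 8 listed genes, 7 had a row and 6 were tested, with 2 above 0 and 4 below 0, a median of -0.24 and none past the threshold. With the striatal score in the model, 5 were above 0 and 1 below (median 0.11). Ache, the enzyme that breaks acetylcholine down, had 9.28, 8.02, 9.43 and 6.77 FPKM in the knockdown libraries and 6.52, 7.04, 6.87 and 7.14 FPKM in the controls (0.24 ± 0.09 SE, limma unadjusted p = 0.0308, adjusted p = 0.316). Knockdown replicate 4 was the one within the control range. Ache alone of the 6 tested was higher at an unadjusted p under 0.05, as were 9.1% of all genes. Prima1, its membrane anchor, had 1.65, 3.4, 4.08 and 1.56 FPKM in the knockdown libraries and 5.53, 3.96, 5.54 and 2.89 FPKM in the controls (-0.61 ± 0.27 SE, limma adjusted p = 0.354). Slc5a7, the high-affinity choline transporter of cholinergic neurons, had 0.335, 0.989, 1.87 and 0.159 FPKM in the knockdown libraries and 2.98, 1.49, 2.45 and 0.502 FPKM in the controls (-0.63 ± 0.37 SE, limma adjusted p = 0.457).

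The cholinergic neuron markers as a whole, 5 of 7 with a row, summed to 0.961, 3.02, 5.02 and 0.582 FPKM in the knockdown libraries and to 7.67, 3.99, 6.71 and 0.988 FPKM in the controls. They were lowest in the 3 libraries with the lowest striatal sums. Their list shares Isl1 with the striatal one. The other 13 receptor subunit genes, Chrm5 and 12 nicotinic ones, had no row and were not analysed here.

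Chaperones and Ly6-type proteins set how many nicotinic receptors reach the membrane and how they gate, and 10 of 12 listed genes had a row. Of these, 8 had a difference above 0 and 2 below, with a median of 0.03 and none past the threshold. With the striatal score in the model there were 5 of each (median -0.03). Ly6h, a membrane-anchored protein that holds back surface delivery of the Chrna7 channel, had 19.58, 20.36, 24.71 and 17.99 FPKM in the knockdown libraries. In the controls it had 12.51, 14.35, 15.05 and 16.59 FPKM, without overlap (0.47 ± 0.11 SE, limma unadjusted p = 0.002, adjusted p = 0.266). Of all genes, 5.93% were higher without overlap and 9.1% were higher at an unadjusted p under 0.05. Tmem35a, the chaperone NACHO that assembles Chrna7 channels, had 22.33, 21.92, 22.76 and 30.57 FPKM in the knockdown libraries and 21.88, 21.82, 21.47 and 20.88 FPKM in the controls. Its groups also did not overlap, by 21.92 against 21.88 FPKM at the closest (0.16 ± 0.10 SE, limma adjusted p = 0.478). Lynx1, which dampens nicotinic channels, had 67.2 ± 12.8 FPKM in knockdown and 80.3 ± 7.90 FPKM in control (SD, n = 4 each; limma adjusted p = 0.396). The Ly6-type gene Lypd6b had 5.06 ± 1.39 FPKM in knockdown and 6.44 ± 0.447 FPKM in control (SD, n = 4 each; limma adjusted p = 0.388).

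Downstream of the Gq-coupled receptors, 9 of 9 listed genes were tested, with 2 above 0 and 7 below, a median of -0.18 and none past the threshold. The count was again 2 and 7 with the striatal score in the model (median -0.19). At an unadjusted p under 0.05 there were 4 in the lower direction (Itpr1, Kcnq3, Plcb1 and Plcb4), against 5.07% of all genes, and 1 in the higher (Gna11), against 9.1%. One gene of the list was lower without overlap, against 3.22% of all genes, and 1 was higher without overlap, against 5.93%. Itpr1, the calcium release channel opened by the product of phospholipase C, had 39.74, 39.38, 38.44 and 28.28 FPKM in the knockdown libraries and 46.05, 44.64, 47.54 and 43.4 FPKM in the controls. Its groups did not overlap (-0.32 ± 0.10 SE, limma unadjusted p = 0.0136, adjusted p = 0.274). Kcnq3, a subunit of the M-current channel that muscarinic receptors close, had 13.2 ± 1.48 FPKM in knockdown and 15.9 ± 1.39 FPKM in control (SD, n = 4 each; limma unadjusted p = 0.0163, adjusted p = 0.288). The G protein subunit genes had differences above 0. Gna11 had 29.2 ± 1.02 FPKM in knockdown and 26.7 ± 1.10 FPKM in control, without overlap (SD, n = 4 each; limma adjusted p = 0.306), and Gnaq 40.3 ± 1.28 and 38.6 ± 1.37 FPKM (limma adjusted p = 0.544).

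Of the 10 genes listed for Gi/o signalling and its potassium channels, 5 had a difference above 0 and 5 below, with a median of -0.01 and none past the threshold; that median was 0.03 with the striatal score in the model. Gnai2, an inhibitory G protein subunit, had 30.54, 31.55, 32.67 and 35.15 FPKM in the knockdown libraries and 28.02, 27.18, 27.83 and 27.47 FPKM in the controls, without overlap (0.22 ± 0.05 SE, limma unadjusted p = 0.00164, adjusted p = 0.266). It alone of the 10 had no overlap or an unadjusted p under 0.05. Among all genes, 5.93% were higher without overlap and 9.1% were higher at an unadjusted p under 0.05. Rgs7, a brake on these G proteins, had 9.39 ± 1.13 FPKM in knockdown and 8.51 ± 0.650 FPKM in control (SD, n = 4 each; limma adjusted p = 0.530). The channel gene Kcnj6 had 2.99 ± 0.559 FPKM in knockdown and 3.75 ± 0.636 FPKM in control (SD, n = 4 each; limma adjusted p = 0.391). Adcy5, the main adenylyl cyclase of striatal neurons, had 28.66, 39.08, 48.03 and 24.46 FPKM in the knockdown libraries and 66.72, 47.6, 64.75 and 27.69 FPKM in the controls (-0.52 ± 0.31 SE, limma adjusted p = 0.467).

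The kinases and arrestins that switch muscarinic receptors off gave 4 differences above 0 and 2 below among 6 genes, a median of 0.07 and none past the threshold, or 3 of each with the striatal score in the model. Grk2 had 43.5 ± 2.48 FPKM in knockdown and 38.7 ± 3.57 FPKM in control (SD, n = 4 each; limma unadjusted p = 0.0467, adjusted p = 0.348). Grk2 alone of the 6 was higher at an unadjusted p under 0.05, as were 9.1% of all genes. Grk6 had 9.90 ± 0.421 FPKM in knockdown and 9.01 ± 0.567 FPKM in control, with limma adjusted p = 0.354 (SD, n = 4 each). The arrestin gene Arrb1 had 6.46 ± 1.14 FPKM in knockdown and 7.28 ± 0.307 FPKM in control (SD, n = 4 each; limma adjusted p = 0.489). Grk5 had 3.49 ± 0.358 FPKM in knockdown and 3.59 ± 0.139 FPKM in control (SD, n = 4 each; limma adjusted p = 0.843).

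**Figure D5:**
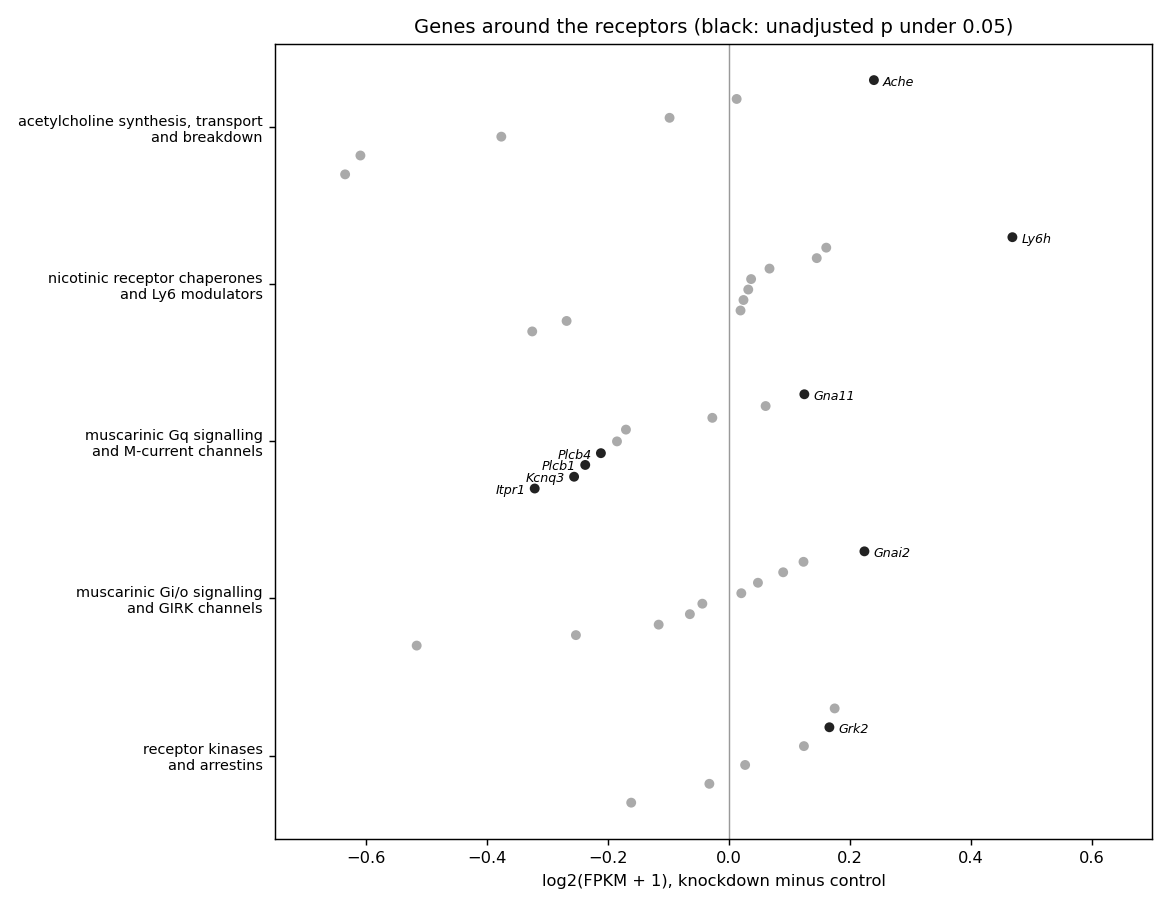
Differences of log2(FPKM + 1), knockdown minus control (horizontal axis), for the tested genes of the lists around the receptors, 1 dot a gene in 5 lists. Genes under an unadjusted p of 0.05 are black and named, with Ly6h highest at 0.47 and Itpr1 at -0.32, and no gene passed the adjusted threshold.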

How the data were processed

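The authors deposited a gene table and a transcript table in FPKM, per the file headers, from stranded total RNA libraries, per the labels' protocols. The tools, per the submitters' processing notes, were FastQC, cutadapt, HISAT2 and StringTie. Their versions, the build, the annotation and the strand setting were not given in the sources used here. Among 13130 gene identifiers, 87.5% were in GENCODE M21 with identical coordinates, so GRCm38 positions are given. In 398 of 399 genes with all of at least 2 annotated transcripts listed, the gene value equalled transcript FPKM times length, summed and divided by the union exon length (relative tolerance 0.001). Read depth is unknown.

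Values were tested as log2(FPKM + 1) with limma 3.58.1 in R 4.3.3 (trend and robust settings, two-sided), after a filter at a mean of 0.5 FPKM. Benjamini-Hochberg adjustment ran over all features. Steps were tested on simulated data. The striatal score is the mean log2 deviation of the 14 markers. Members and lists were chosen with earlier results of these data known. Genes named from a list are up to 2 with the smallest p in each direction; the other named genes are the receptors, Homer1, and the 3 genes most like each receptor. Adar, Plcb1 and Plcb4 were named after their values were seen.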

Additional observations from a re-analysis of the deposited data

Results flagged for a closer look

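The isoform Chrm3-201 was flagged in both groups because 1 library stood far from the other 3 of its group (Dixon's test at the 95% level; chance flags about 1 in 20 groups, and 2 of 40 groups were flagged here). In the knockdown libraries it had 0.0983 FPKM in replicate 1, against 0.111 to 0.112 FPKM in the others, a narrow range at a very low level. In the controls it had 17.78 FPKM in replicate 4, against 0.0964 to 0.103 FPKM in the others. The same control library had the lowest Chrna4-205 value (0.119 FPKM).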

How the results depend on the processing

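No receptor gene or transcript passed the adjusted threshold under any alternative run, with limma adjusted p from 0.226 to 0.660 for Chrna7 and from 0.323 to 0.690 for Chrm2. Chrna7 stayed below 0 under all 20 alternatives (-0.50 to -0.24), and so did Chrm2 (-0.27 to -0.14) and Chrna5 (-0.54 to -0.09). Signs turned with the striatal score as a covariate for Chrm1 (-0.016), Chrm4 and Chrm4-201 (0.070 each), Chrnb2 (-0.050), Chrm1-201 (-0.0096) and Chrm1-202 (-0.042), with library weights for Chrm3 (0.061) and the share of Chrm1-201 (-0.125 points), (Chrnb2 moved to 0.544), and for Chrm3 with a GC content and length trend removed (0.0030), an alternative chosen after seeing the data; the cause was not tested. With 1 library left out, ranges that crossed 0 were -0.237 to 0.325 for Chrnb2, -0.063 to 0.171 for Chrna4, -0.072 to 0.058 for Chrm3, -0.0021 to 0.085 for Chrm1-202, -0.179 to 0.392 for Chrnb2-201, -0.062 to 0.175 for Chrna4-201 and -1.36 to 0.011 for Chrm3-201. For shares they were -0.381 to 0.560 points for Chrm1-201, -0.583 to 0.230 for Chrm1-202, -21.3 to 0.037 for Chrm3-201 and -0.037 to 21.3 for Chrm3-202. Over all features, leaving out 1 library gave 0 to 2 genes past the threshold (0 with all 8), 9 to 22 transcripts (6) and 10 to 19 shares (5). Genes at an unadjusted p under 0.05 split into 1183 higher and 659 lower, and into 960 and 840 after median-of-ratios rescaling or 990 and 838 after quantile normalization. They were 616 and 354 (7.46% of genes in all) with the striatal score as a covariate, 594 and 477 after correction for GC content and length, and 1199 to 2173 in all with 1 library left out (1199 without control replicate 1). It is not stated whether the replicate numbers pair the libraries. Same-numbered deviations correlated at -0.185, -0.072, 0.200 and -0.017, and the other pairs at -0.217 to 0.191. So few correlations cannot settle whether the libraries are paired. With a replicate block, 0 shares and 4 transcripts passed, and Chrna7 kept -0.34 (limma adjusted p = 0.355).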
